A study of Mus musculus with 69 samples.

Results

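The transcripts described here are those of 8 genes of the death receptor, or extrinsic, route to apoptosis. They are the ligand gene Fasl, the receptor genes Fas, Tnfrsf10b and Tnfrsf1a, the adaptor genes Fadd and Ripk1, the initiator caspase gene Casp8 and its regulator Cflar. They were chosen by symbol, and all 8 were found among the 55367 gene symbols of the count table. The question was how these genes were expressed when wild-type (WT) and p53-deficient mouse cells developed side by side, a setting used to study competition between cells. The table holds 69 bulk mRNA libraries in 23 groups of 3 replicates, made from mouse embryonic stem (mES) cells and from gastruloids, aggregates of mES cells that pass through a gastrulation-like development in culture. All cells derive from the E14tg2A line of 129/Ola mice, grown with serum and LIF. There were 2 WT clones and 1 p53KO clone. WT-mCherry cells carry a histone H2B-mCherry transgene under an EF1α promoter, and WT-emiRFP cells carry H2B-emiRFP670 under a CAG promoter. The p53KO-emiRFP clone is a daughter of the WT-emiRFP clone with a homozygous frameshift in exon 4 of Trp53, selected with the p53-activating drug Nutlin-3a.

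At 0 h the 3 clones were sequenced as mES cells. From 48 to 144 h, cells were sorted by colour from pooled mosaic gastruloids of 150 WT-mCherry cells seeded with 150 WT-emiRFP cells (WT+WT) or with 25 p53KO-emiRFP cells (WT+p53KO). All gastruloids received the Wnt activator CHIR99021 between 48 and 72 h. Each of the time points 48, 72, 96, 120 and 144 h therefore gave 4 populations: WT-emiRFP and WT-mCherry cells from WT+WT, and p53KO-emiRFP and WT-mCherry cells from WT+p53KO gastruloids. Replicates came from experiments done at separate times, and the purity of the sorted cells was not rechecked. The p53KO-emiRFP and WT-emiRFP cells of gastruloids differed in genotype, in clonal history and in how many cells were seeded, and these cannot be told apart. WT-mCherry cells of both kinds of gastruloid are the same clone and differed in their neighbours.

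Death receptors are surface proteins of the tumour necrosis factor (TNF) receptor family with an intracellular death domain. Bound by their ligands, they gather the adaptor FADD, which recruits caspase-8 into a death-inducing signalling complex. Active caspase-8 cleaves executioner caspases directly and can also cleave BID, which passes the signal to mitochondria. The TNF receptor instead first assembles RIPK1 into a survival-signalling complex, and caspase-8 is engaged only when that complex is dismantled. The genes for Fas and for the TRAIL receptor are known transcriptional targets of p53. mRNA levels say nothing of whether caspase-8 was active in these cells, which was not measured here.

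The genes lie apart in the mouse genome, except for Casp8 and Cflar, which neighbour each other on chromosome 1. In the GRCm38 annotation, Fas lies at chr19:34290666-34327772 on the plus strand, Fasl at chr1:161780689-161788495 on the minus strand, Fadd at chr7:144577318-144582463 on the minus strand and Tnfrsf10b at chr14:69767472-69784411 on the plus strand. Cflar lies at chr1:58711508-58758884, Casp8 at chr1:58795374-58847503, Tnfrsf1a at chr6:125349362-125362484 and Ripk1 at chr13:34002363-34037147, each on the plus strand. Reads were assigned to whole genes. Exons of Ripk1 share 241 bases with Serpinb6a on the opposite strand, which had up to 4151 counts in a library, and exons of Fadd share 239 bases with the antisense gene Faddos, which had at most 17. Whether the counting used strand is not given in the sources used here, and without it reads of the shared bases cannot be told apart.

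Fas and Fasl, the receptor and its ligand, are the pair whose transcripts varied most between groups. The 250 bases before the start of each gene, as RefSeq gives them on GRCm38.p6, are shown for this pair because Fas is a known target of p53. They are read 5′ to 3′ on the gene's strand, from chr19:34290409-34290658 on the plus strand for Fas and chr1:161788496-161788745 on the minus strand for Fasl. The capitals mark a p53 half-site, a 10-base motif searched on both strands.
Fas: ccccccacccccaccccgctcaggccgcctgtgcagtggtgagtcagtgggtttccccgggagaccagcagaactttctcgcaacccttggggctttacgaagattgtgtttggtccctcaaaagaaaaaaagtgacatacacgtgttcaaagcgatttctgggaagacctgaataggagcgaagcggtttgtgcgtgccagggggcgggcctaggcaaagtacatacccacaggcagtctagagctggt
Fasl: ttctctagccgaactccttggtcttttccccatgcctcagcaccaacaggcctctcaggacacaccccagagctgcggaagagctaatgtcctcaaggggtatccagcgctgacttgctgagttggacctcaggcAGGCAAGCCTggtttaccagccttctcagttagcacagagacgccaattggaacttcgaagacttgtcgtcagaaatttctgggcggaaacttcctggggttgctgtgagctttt
The half-site of Fasl begins 115 bases before its start, and the Fas window holds none. RefSeq windows of 250 bases before to 50 after a start were found for 7 of the 8 genes, with 2 for Ripk1. None was found for Tnfrsf10b, which was therefore not searched. The other 5 genes' windows held no half-site either. Of all 32851 windows 8.40% held at least 1 half-site, and 0.0700% held a pair within 13 bases. The TATA motif TATAAA was found only for Cflar among the 7 genes, against 13.6% of all windows. A match is a match of letters and not evidence of binding.

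The 69 libraries had 26722541 to 72981570 counts, with a median of 53098728, and read counts were normalised with size factors between 0.484 and 1.30. Trp53, the mutated gene, had in every p53KO-emiRFP library 7.79% to 11.6% of its level in the WT-emiRFP library of the same number and time. Many lineage markers differed between genotypes. The share of all genes whose groups lay apart was not computed for this comparison, so counts of 1 or 2 are not read as shifts. In mES cells 4 of 5 naive pluripotency markers were lower and 4 of 4 primed pluripotency markers higher in every p53KO-emiRFP than in every WT-emiRFP library. By the same measure 2 of 5 naive markers were higher and 1 lower at 48 h, 3 of 5 were lower at 72 h and 5 of 5 at 96 h. Primed markers were lower for 1 of 4 at 48 h, higher for 1 at 72 h and for 2 at 96 h. Of 5 primitive streak and paraxial mesoderm markers 1 was lower at 48 h, 2 were higher and 1 lower at 72 h, and 2 higher and 3 lower at 96 h. Of 6 haematoendothelial markers 3 were higher at 48 h. At 72 h they had 1 above and 1 below the WT libraries, and at 96 h 2 above and 2 below. At 120 h 5 of 5 naive, 2 of 4 primed and 4 of 6 haematoendothelial markers were lower, and 4 of 5 mesoderm markers and 1 primed marker higher. The part of these markers in the differences of members at 0 to 120 h was not tested. At 144 h the summed level of 5 primitive streak and paraxial mesoderm markers was 16539 to 22377 in p53KO-emiRFP and 2122 to 3086 in WT-emiRFP cells, with 5 of 5 higher in every p53KO library. The sum of 5 naive pluripotency markers was 11043 to 16829.7 against 68698 to 80741, with 5 of 5 lower in every p53KO library. The sum of 6 haematoendothelial markers was 1694 to 2159 against 7184 to 7215, with 3 of 6 lower in every p53KO library, and 4 of 4 primed markers were lower too. No marker of these lists was at 0 in all 3 libraries of a group at 144 h. In mES cells the naive markers summed to 150221 to 156072 in p53KO-emiRFP, 175491 to 186153 in WT-emiRFP and 173149.6 to 184826 in WT-mCherry libraries. Of the markers of immune cells, which use Fas ligand, Gzmb reached at most 1.22, Nkg7 7.76, Ptprc 9.85, Prf1 14.9, Cd8a 23.01, Csf1r 24.6 and Cd3e 190.3 normalised counts. In bulk libraries of sorted cells, fewer cells of a type and less RNA per cell cannot be told apart.

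Per kilobase of exon, averaged over all libraries, the TRAIL receptor and the TNF receptor were the most abundant of the 8 transcripts. The level was 372.7 normalised counts per kb for Tnfrsf10b and 297.0 for Tnfrsf1a, followed by 98.1 for Fadd and 79.7 for Ripk1. Cflar had 40.8 and Casp8 40.0, and Fas, with 14.4, and Fasl, with 3.95, were the least abundant. Among the 40751 genes with counts and a known exon length, Tnfrsf10b stood at the 85.3rd percentile and Fasl at the 51.6th. Of the neighbours in this order, Ripk1 exceeded Cflar and Casp8 exceeded Fas in 69 of 69 libraries, Tnfrsf1a exceeded Fadd in 68 and Fas exceeded Fasl in 61. The order was not stable for Tnfrsf10b over Tnfrsf1a (44 of 69), Fadd over Ripk1 (45) and Cflar over Casp8 (38). Casp8 and its regulator Cflar were thus close in level per kb, with a median ratio of Cflar to Casp8 of 1.03.

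**Figure D1:**
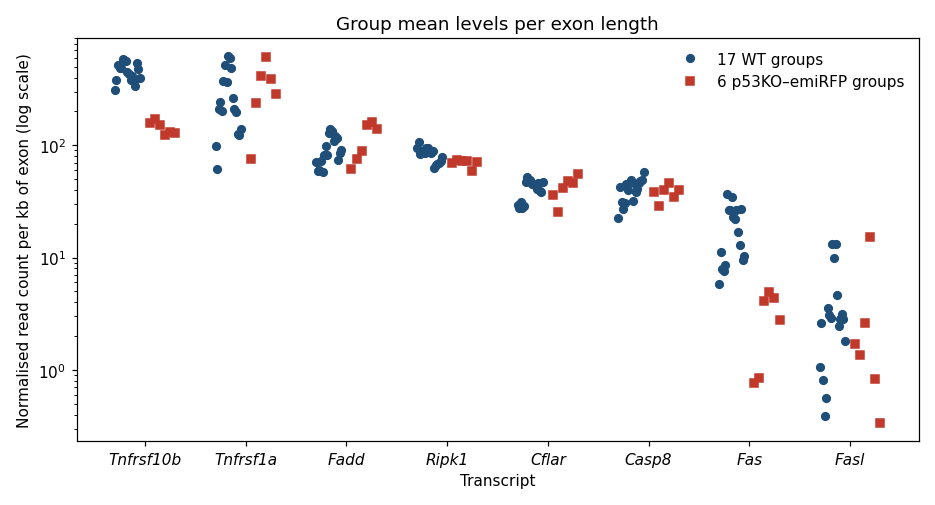
Mean normalised read count per kb of exon on a log axis for the 8 transcripts, with 1 point for each of 23 groups of 3 libraries; circles are the 17 WT groups and squares the 6 p53KO-emiRFP groups. Tnfrsf10b, at 372.7 on average, and Tnfrsf1a, at 297.0, lie at the top, and Fas and Fasl at the bottom; the p53KO-emiRFP squares lie below all WT circles for Tnfrsf10b.

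Fas, the receptor of Fas ligand, was lower at all 6 time points in the p53KO-emiRFP cells than in their WT-emiRFP counterparts. In mES cells it had 1.04, 0 and 3.64 normalised counts in the 3 p53KO-emiRFP libraries and 13.4, 9.41 and 13.5 in the WT-emiRFP libraries. At 48 h the values were 0, 1.22 and 4.03 against 17.7, 9.94 and 19.6. The groups did not overlap at either time, and these p53KO values are 1, 0 and 3 reads at 0 h and 0, 1 and 4 reads at 48 h. From summed reads alone, p53KO-emiRFP cells had 11.6% of the WT-emiRFP level at 0 h (4 against 41 reads, exact 95% interval 3.03% to 32.1%) and 11.8% at 48 h (5 against 41 reads, 3.65% to 29.9%). The intervals cover counting error only.

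From 48 to 72 h Fas rose in WT cells, and in p53KO-emiRFP cells from a lower base. The 72 h values were 8.83, 8.89 and 7.84 in p53KO-emiRFP and 50.0, 63.8 and 51.3 in WT-emiRFP libraries. At 96 h they were 9.22, 10.6 and 10.3 against 52.4, 42.9 and 45.3. No p53KO library of any time had more than 13.3 normalised counts. At 120 h the values were 13.3, 4.53 and 9.03 against 31.8, 35.9 and 36.1, and at 144 h 4.31, 5.01 and 7.76 against 20.5, 18.8 and 19.1. The 2 groups did not overlap at any of the 6 time points. The p53KO mean was 12.9%, 11.1%, 15.5%, 21.5%, 25.9% and 29.2% of the WT-emiRFP mean from 0 to 144 h.

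The log2 fold changes of Fas in p53KO-emiRFP against WT-emiRFP cells, with standard errors, were −2.98 ± 0.62 at 0 h (edgeR adjusted p = 0.0116), −2.997 ± 0.61 at 48 h (adjusted p = 0.00226) and −2.67 ± 0.30 at 72 h (adjusted p = 1.1e-05). At 96 h the change was −2.22 ± 0.24 (adjusted p = 1.1e-05), at 120 h −1.96 ± 0.32 (adjusted p = 1.4e-04) and at 144 h −1.77 ± 0.46 (adjusted p = 0.00366). Each p here and below is adjusted (Benjamini-Hochberg) over all tested genes of its comparison, and a change passed where that p was under 0.05. Fas passed the filter on low counts through the WT groups, and p53KO-emiRFP libraries at 0 and 48 h had at most 4 reads. The p at these 2 times therefore say little beyond the reads given above. Of the 6 calls, those at 0 and 144 h each rest on 1 replicate: the adjusted p at 0 h was 0.126 without replicate 2, and at 144 h 0.0619 without replicate 1. The differences between genotypes at 72 to 144 h were not shown to differ from that at 48 h, with adjusted p of 0.182 or more in edgeR.

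Tnfrsf10b, which encodes the TRAIL receptor of the mouse, was the other member lower in p53KO-emiRFP cells throughout. In mES cells it had 913, 776 and 875 normalised counts in p53KO-emiRFP and 1759.9, 1675 and 1616 in WT-emiRFP libraries. At 72 h, where the level in WT cells was highest, the values were 801, 879 and 797 against 2883, 3243 and 3234. At 144 h they were 668, 759.5 and 674 against 2513, 2672 and 2556. Over all time points the 18 p53KO libraries lay between 629 and 1021 (median 786) and the 51 WT libraries between 1604 and 3243 (median 2474), so that no p53KO library reached any WT library.

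The change of Tnfrsf10b was −0.98 ± 0.12 at 0 h (edgeR adjusted p = 2.3e-04), −1.49 ± 0.082 at 48 h (adjusted p = 1.5e-09), −1.92 ± 0.067 at 72 h (adjusted p = 1.4e-11), −1.82 ± 0.046 at 96 h (adjusted p = 2.0e-12), −1.49 ± 0.11 at 120 h (adjusted p = 7.0e-08) and −1.88 ± 0.072 at 144 h (adjusted p = 2.1e-10). The p53KO mean was 50.8% of the WT-emiRFP mean in mES cells and between 26.5% and 35.5% in gastruloids. Every call remained when any replicate was left out. Fas and Tnfrsf10b were thus lower at all 6 time points, as were 247 (1.51%) of the 16309 genes tested at all 6, and no other member was.

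**Figure D2:**
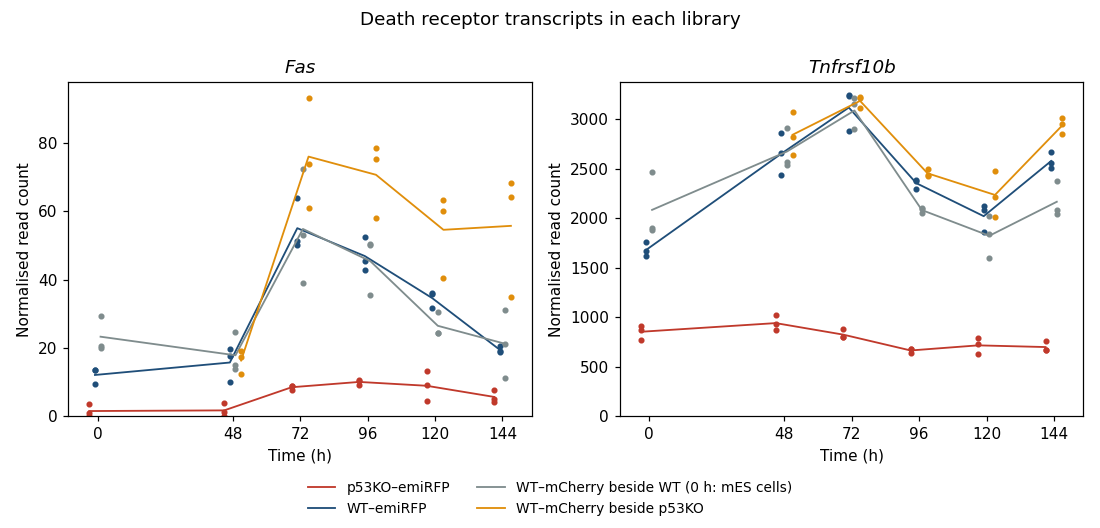
Normalised read counts of Fas and Tnfrsf10b against time in hours, with 1 point per library set slightly sideways by population and lines through group means of 3. Fas in p53KO-emiRFP libraries stays at or under 13.3, while WT cells peak at 72 h and WT-mCherry cells beside p53KO cells stay at or above 34.9 from 72 h on; Tnfrsf10b in p53KO-emiRFP libraries stays at or under 1021 and in WT libraries at or above 1604.

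Fasl, the gene of the only ligand among the 8, was at a few reads in most libraries and had 1 brief peak. At 96 h it had 24.6, 40.5 and 23.3 normalised counts in p53KO-emiRFP, 21.3, 21.9 and 14.4 in WT-emiRFP, 33.2, 22.0 and 21.0 in WT-mCherry beside WT and 23.02, 29.3 and 24.0 in WT-mCherry beside p53KO cells. At 72 h no library of any population had over 8.65, and at 120 h none had over 11.1. The peak was in p53KO and WT cells alike. The p53KO-emiRFP values at 96 h lay above those of WT-emiRFP cells without passing the test (0.58 ± 0.28, edgeR adjusted p = 0.159), and overlapped those of both WT-mCherry groups. The changes over time are given as values only, since Fasl passed the filter of that fit only through the groups where it was high. In WT cells the change was −1.50 ± 0.51 from 0 to 48 h and 2.34 ± 0.40 from 48 to 72 h. It was 1.91 ± 0.22 from 72 to 96 h and −1.88 ± 0.22 from 96 to 120 h. In p53KO-emiRFP cells the changes were 2.47 ± 0.38 from 72 to 96 h and −4.06 ± 0.47 from 96 to 120 h.

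After the peak Fasl had fewer reads in p53KO-emiRFP than in WT-emiRFP libraries, too few for the filter of the test within a time point. The reads were 2, 2 and 1 in p53KO-emiRFP against 3, 4 and 8 in WT-emiRFP libraries at 120 h, and 0, 1 and 1 against 5, 2 and 11 at 144 h. By summed reads the p53KO level was 33.4% of the WT-emiRFP level at 120 h (exact 95% interval 9.51% to 96.8%) and 11.1% at 144 h (1.25% to 46.2%). These intervals too cover counting error only. Replicate 3 held 8 of the 15 WT-emiRFP reads at 120 h and 11 of the 18 at 144 h. The sum of the immune markers was lower in the same p53KO-emiRFP libraries, but over time it did not follow Fasl. In WT-emiRFP libraries it was 194 to 215 in mES cells and 17.2 to 32.9 at 96 h, where Fasl peaked. Cd3e reached 190.3 in a library and the other markers at most 24.6, so the sum can follow a single gene. Their 7 genes summed to 12.1 to 28.1 in p53KO-emiRFP and 144 to 155 in WT-emiRFP libraries at 144 h, with 4 of 7 lower in every p53KO library. At 120 h the sums were 10.03 to 11.2 and 67.8 to 83.2, with 2 of 7 lower in every p53KO library. Ptprc and Nkg7 were at 0 in all 3 p53KO libraries at 144 h, and Ptprc and Gzmb in all 3 WT-emiRFP libraries at 120 h. The part of the immune markers in the Fasl difference was not tested.

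Tnfrsf1a, which encodes the TNF receptor with a death domain, had the widest course of the well-expressed members and changed sides between genotypes. It rose at each step from mES cells to 96 h, in WT as in p53KO-emiRFP cells. The 96 h values were 1400.4, 1770.3 and 1539 in p53KO-emiRFP and 1430.3, 1774 and 1417 in WT-emiRFP libraries, which overlapped. At 120 h they were 913, 1095 and 984 against 562, 506 and 549, and at 144 h 759.7, 683 and 763 against 358, 336 and 261. The p53KO libraries were thus all above the WT-emiRFP libraries at these last times, by 0.89 ± 0.091 (1.85-fold, edgeR adjusted p = 2.2e-06) and 1.21 ± 0.12 (2.31-fold, adjusted p = 9.4e-07). The mesoderm markers were higher in the same cells: at 120 h their sum was 26642 to 30635 in p53KO-emiRFP and 8987 to 12268 in WT-emiRFP libraries, with 4 of 5 higher in every p53KO library and none at 0. Their part in the difference was not tested.

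At 72 h Tnfrsf1a was instead lower in p53KO-emiRFP cells, with 1074, 1048 and 1063 against 1472, 1272 and 1321 (−0.35 ± 0.084, edgeR adjusted p = 0.00563, and 0.065 without replicate 1). The other WT clone was lower still, with 913, 897 and 1025 in WT-mCherry beside WT cells, so the p53KO level lay between those of the 2 WT clones. In mES cells, where the change of −0.36 ± 0.13 did not pass (adjusted p = 0.152, but 0.0377 with all groups in a single fit), the p53KO mean of 197 also lay between 253 in WT-emiRFP and 158 in WT-mCherry cells.

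Fadd, the adaptor gene, and Cflar, which encodes the caspase-8 regulator FLIP, were both higher in p53KO-emiRFP cells late. At 144 h Fadd had 511, 604 and 515 normalised counts in p53KO-emiRFP and 346, 368 and 294 in WT-emiRFP libraries (0.69 ± 0.12, 1.62-fold, edgeR adjusted p = 2.0e-04). At 120 h it had 636, 594 and 654 against 499, 429 and 493 (0.41 ± 0.10, adjusted p = 0.00476, and 0.0554 without replicate 1). Neither pair of groups overlapped, and from 0 to 96 h no change of Fadd passed. Cflar at 144 h had 711, 681 and 701 against 458, 508 and 502 (0.51 ± 0.084, 1.43-fold, adjusted p = 9.5e-05). At 72 h it was the other way round, with 505, 503 and 560.0 against 616, 650.3 and 713 (−0.34 ± 0.10, adjusted p = 0.0171, and 0.152 without replicate 2). The lineage markers given above moved with genotype at these late times too, and their part in the differences was not tested.

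Casp8, the initiator caspase gene, at 0 and 96 h was higher in p53KO-emiRFP cells than in those of the WT-emiRFP clone, while its means lay below those of the other WT clone. In mES cells it had 120.3, 95.1 and 116 in p53KO-emiRFP, 68.0, 68.97 and 56.6 in WT-emiRFP and 119, 116 and 134 in WT-mCherry libraries. At 96 h the values were 142, 144 and 110.4, 99.6, 97.3 and 77.2 and 130.5, 131 and 137. WT-emiRFP cells were the low group of the 3 at both times. The changes against WT-emiRFP were 0.78 ± 0.18 at 0 h (edgeR adjusted p = 0.0181, but 0.183 without replicate 2 and 0.204 without replicate 3) and 0.53 ± 0.15 at 96 h (adjusted p = 0.0206, but 0.165 without replicate 1 and 0.132 without replicate 2).

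Ripk1, whose kinase stands between survival and death signalling of the TNF receptor, had lower means in p53KO-emiRFP cells at every time point and passed at 72 and 96 h. At 72 h it had 588, 585 and 638 in p53KO-emiRFP and 755, 773 and 847 in WT-emiRFP libraries (−0.39 ± 0.074, edgeR adjusted p = 0.0011). At 96 h it had 599, 643 and 580.4 against 722, 698 and 712 (−0.23 ± 0.061, adjusted p = 0.0143, but 0.188 without replicate 1 and 0.117 without replicate 3, and 0.0503 with only the 2 groups in the fit). The groups did not overlap from 0 to 120 h, where the other changes were −0.44 ± 0.12 at 0 h (adjusted p = 0.0502), −0.21 ± 0.082 at 48 h (adjusted p = 0.0772) and −0.19 ± 0.086 at 120 h (adjusted p = 0.0872). With the replicate number as a block these 3 passed, with adjusted p of 0.0201, 0.00462 and 0.0262. At 144 h the change was −0.035 ± 0.076 (adjusted p = 0.701) and the groups overlapped.

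**Figure D3:**
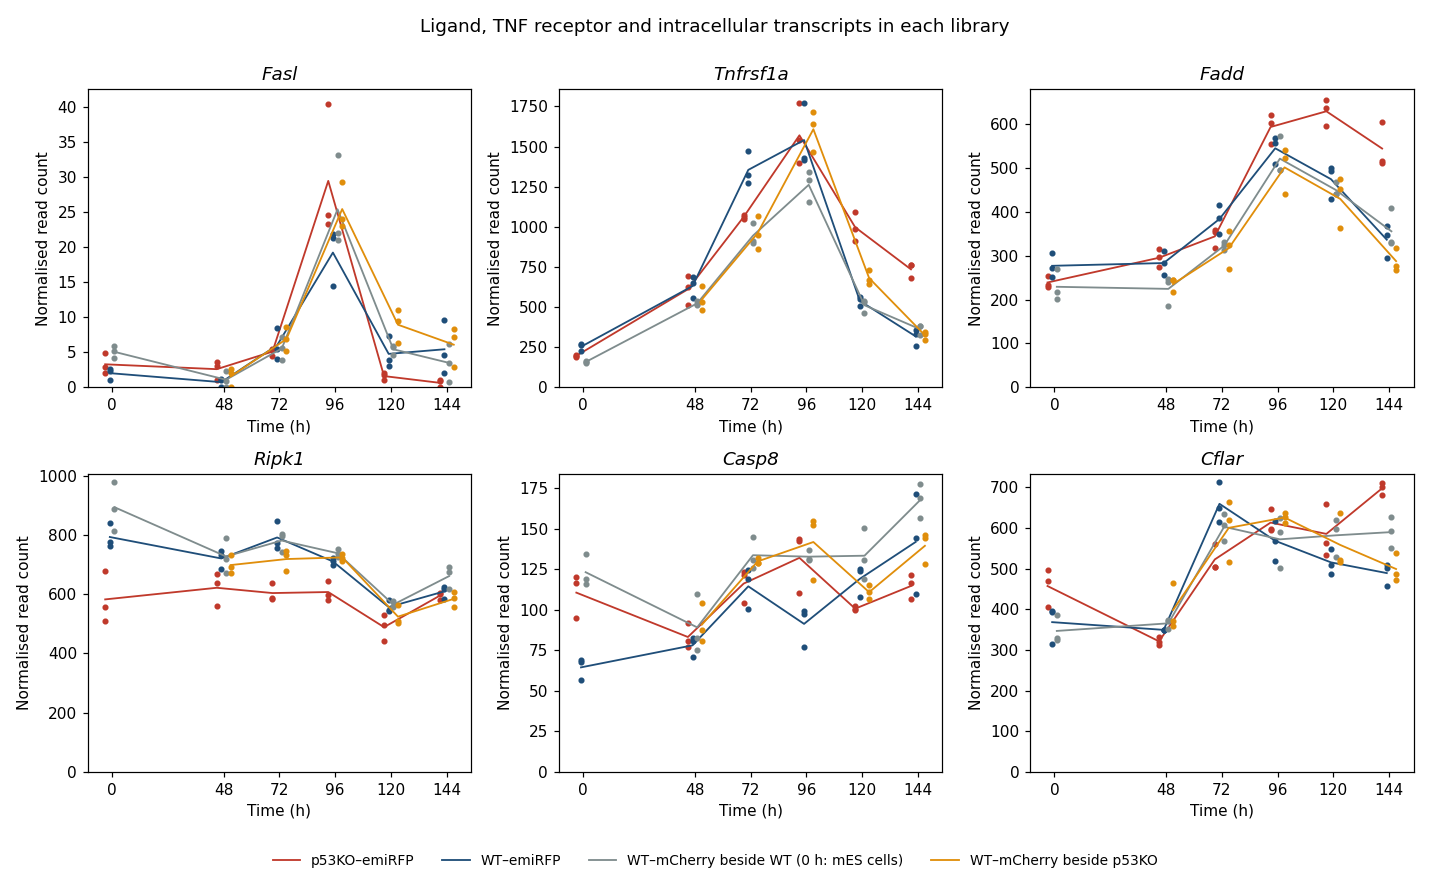
Normalised read counts of Fasl, Fadd, Casp8, Cflar, Tnfrsf1a and Ripk1 against time in hours, 1 point per library and lines through group means of 3, in the colours of the 4 populations. Fasl peaks at 96 h in all populations, up to 40.5, and Tnfrsf1a peaks at 96 h and then stays higher in p53KO-emiRFP cells than in the others.

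Counted over the genes tested, p53KO-emiRFP cells at 0 h had 2 of 7 members lower than WT-emiRFP cells, Fas and Tnfrsf10b, and 1 higher, Casp8. Of all tested genes 6.13% differed there, 4.15% as lower and 1.98% as higher. The 48 h cells had 2 of 7 lower and 0 higher, where 11.7% of all genes were lower and 10.3% higher (22.0% in all). At 72 h 5 of 7 were lower, Fas, Tnfrsf10b, Tnfrsf1a, Cflar and Ripk1, and 0 higher, where 15.7% of all genes were lower and 13.4% higher (29.1% in all). The 96 h counts were 3 of 8 lower and 1 higher, where 13.8% of all genes were lower and 9.45% higher (23.3% in all). By 120 h 2 of 7 were lower and 2 higher, where 23.7% of all genes were lower and 27.3% higher (51.0% in all), and by 144 h 2 were lower and 3 higher, where 32.1% of all genes were lower and 33.1% higher (65.3% in all). Most tested genes thus differed at the last 2 time points. Fasl passed the filter on low counts at 96 h only. Over the 6 time points 23 of 43 tests passed, 16 lower and 7 higher, and 15 of the 23 remained whichever replicate was left out.

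**Figure D4:**
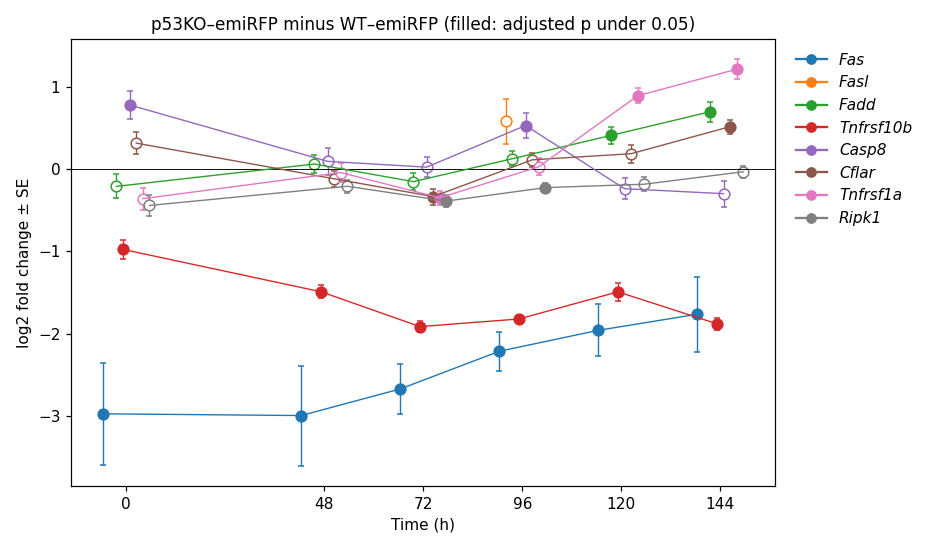
log2 fold change ± SE of each member in p53KO-emiRFP against WT-emiRFP cells by time in hours; filled points have an adjusted p under 0.05. Fas and Tnfrsf10b stay at or below −0.98 at all 6 time points, while Tnfrsf1a, Fadd and Cflar end above 0 at 144 h.

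WT-mCherry cells with p53KO neighbours had more Tnfrsf10b mRNA at 96 and 144 h, and more Fas mRNA at 120 and 144 h, than WT-mCherry cells with WT neighbours. At 48 and 72 h, 0 of 7 members passed in edgeR, 0 had an unadjusted p under 0.05 and 0 passed in DESeq2, and 0.0735% and 0.559% of all genes passed. No member's groups were apart at these times, beside 11.9% and 15.2% of all genes. For Fas the means at 48 h were 16.3 ± 3.50 beside p53KO and 17.9 ± 5.93 beside WT cells (−0.10 ± 0.37, adjusted p = 0.975), and without replicate 1 the sign turned (0.33). At 72 h they were 75.9 ± 16.1 and 54.8 ± 16.7 (0.46 ± 0.22, adjusted p = 0.511).

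At 96 h Fas had 75.3, 78.4 and 58.1 normalised counts beside p53KO and 35.5, 50.5 and 50.2 beside WT cells. These groups did not overlap, and the change of 0.62 ± 0.18 had an edgeR adjusted p of 0.0705, or 0.0202 with the replicate block. At 120 h the values were 63.2, 59.9 and 40.6 against 24.3, 30.6 and 24.5, and at 144 h 68.1, 64.1 and 34.9 against 21.2, 31.1 and 11.3. Every library beside p53KO was above every library beside WT cells, by 1.05 ± 0.24 at 120 h (2.07-fold, adjusted p = 0.0218) and 1.35 ± 0.32 at 144 h (2.54-fold, adjusted p = 0.00857). The first of these calls is lost without any of the replicates (adjusted p = 0.296 without replicate 1, 0.0651 without replicate 2 and 0.0893 without replicate 3), and the second has an adjusted p of 0.125 without replicate 1.

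Tnfrsf10b beside p53KO cells was higher by a smaller factor. At 96 h it had 2436, 2500.4 and 2432 against 2098, 2053 and 2103 (0.24 ± 0.044, edgeR adjusted p = 0.0134, but 0.36 without replicate 1 and 0.174 without replicate 2, and 0.118 with all groups in a single fit). In the same libraries 4 of 5 naive markers were below every library beside WT cells, 1 of 4 primed markers was above, and mesoderm and haematoendothelial markers had 1 above and 1 below each. By that measure 23.9% of all tested genes lay apart, so a count of 1 is no shift. The part of these markers in this change was not tested. At 144 h Tnfrsf10b had 2851, 3019 and 2954 against 2041, 2374 and 2089 (0.44 ± 0.068, 1.36-fold, adjusted p = 6.4e-04), and this call remained without any replicate. At 120 h the groups overlapped (2017 to 2478 against 1604 to 2028, 0.29 ± 0.10, adjusted p = 0.117), and the change passed with no filter on low counts (adjusted p = 0.0111) and with all groups in a single fit (adjusted p = 0.0201).

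Tnfrsf1a beside p53KO cells had 645, 731 and 667 at 120 h against 533, 466 and 537 (0.41 ± 0.091, edgeR adjusted p = 0.0177, but 0.139 without replicate 1, 0.088 without replicate 2 and 0.107 without replicate 3, and 0.0644 with only the 2 groups in the fit). At 96 h it had 1469, 1712 and 1643 against 1152, 1294 and 1339 (0.35 ± 0.10, adjusted p = 0.0739, or 1.2e-04 with the replicate block). Neither pair of groups overlapped, while at 144 h they did, with means of 325 ± 26.9 and 362 ± 33.2 (−0.15 ± 0.12, adjusted p = 0.395). Mesoderm markers were higher in the same WT-mCherry libraries at 120 h, where 4 of 5 were above every library beside WT cells and their sum was 15645 to 18488 against 10218 to 14119. Of the other markers, 3 of 5 naive, 1 of 4 primed and 4 of 6 haematoendothelial ones were below every library beside WT cells. By that measure 22.3% of all tested genes lay apart, so 1 of 4 is near that share. The part of these markers in the changes of Tnfrsf1a and Fas at 120 h was not tested.

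Cflar at 144 h was just past the threshold as lower beside p53KO cells, with 539, 487 and 472 against 592, 552 and 626 (−0.24 ± 0.084, edgeR adjusted p = 0.0489, but 0.0941 without replicate 1, 0.152 without replicate 2 and 0.355 without replicate 3), and this call was lost under 8 of the alternative settings. Fadd had 318, 267 and 277 against 330.0, 408 and 328 (−0.31 ± 0.12, adjusted p = 0.0877, or 0.0349 with the replicate block). Casp8 (128 to 146 against 157 to 178) and Ripk1 (556 to 609 against 619 to 690.3) did not pass. Fadd, Cflar, Casp8 and Ripk1 each lay below every library beside WT cells, and Fas and Tnfrsf10b above. Of the markers at 144 h, 3 of 5 of mesoderm, 1 of 5 naive and 1 of 6 haematoendothelial ones were above every library beside WT cells, and 3 of 6 haematoendothelial and 4 of 4 primed ones below. The mesoderm sum was 3162 to 6511 against 4661 to 6275, which overlap. The part of these markers in the changes at 144 h was not tested. Casp8 and Ripk1 had no call in this comparison at any time. In all, 1 of 8 members passed at 96 h, 2 of 7 at 120 h and 3 of 7 at 144 h, beside 3.93%, 5.95% and 25.5% of all genes. Groups that did not overlap numbered 3, 4 and 6 of the 8 members at these times, Fasl included, beside 23.9%, 22.3% and 37.7% of all tested genes.

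H2bc14, a histone transcript with a mean of 9941 normalised counts in WT-emiRFP and 7.24 in WT-mCherry mES cells, was used as a mark of RNA from emiRFP cells in the WT-mCherry libraries. Its level, as a share of that in the same-numbered emiRFP library, was 7.46%, 3.01% and 6.66% beside p53KO cells at 120 h and 16.9%, 2.39% and 9.23% at 144 h. Beside WT cells it was 2.12% or less throughout. Fas and Tnfrsf10b themselves were lower in the p53KO-emiRFP than in the WT-mCherry libraries. With this share taken off every gene, an alternative added after the data were seen, the change was 1.11 for Fas at 120 h and 1.49 at 144 h, 0.56 for Tnfrsf10b at 144 h and 0.37 for Tnfrsf1a at 120 h. Fadd and Tnfrsf1a at 144 h then passed as lower, with −0.44 (edgeR adjusted p = 0.0143) and −0.37 (adjusted p = 0.0306).

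**Figure D5:**
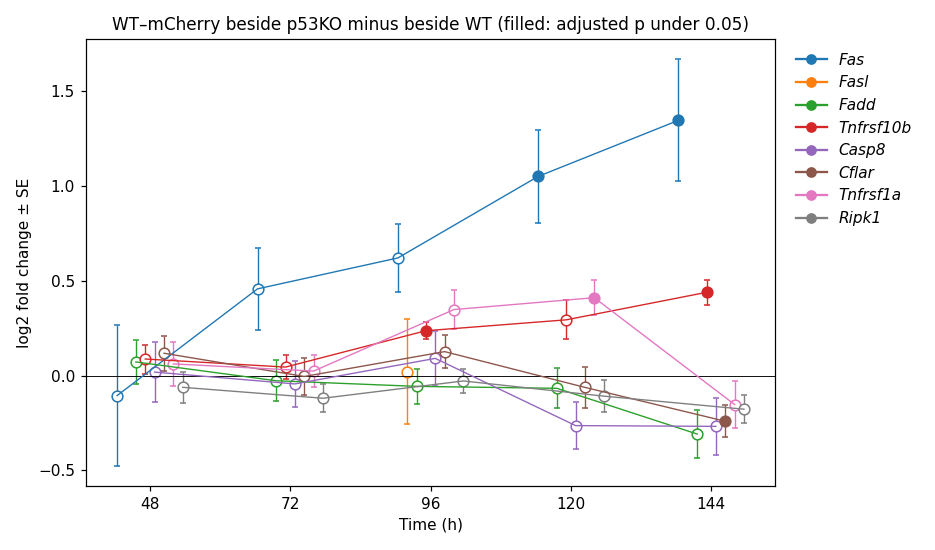
log2 fold change ± SE of each member in WT-mCherry cells, p53KO against WT neighbours, by time in hours; filled points have an adjusted p under 0.05. Fas moves from −0.10 at 48 h to 1.35 at 144 h, and Cflar is below 0 at 144 h.

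The WT-emiRFP and WT-mCherry clones of WT+WT gastruloids, both with intact Trp53, also differed in some members. In mES cells Casp8 was lower in WT-emiRFP cells (−0.93 ± 0.18, edgeR adjusted p = 0.00639, but 0.125 without replicate 2 and 0.0804 without replicate 3) and Tnfrsf1a higher by 0.68 ± 0.14 (adjusted p = 0.0084, but 0.15 without replicate 2 and 0.0749 without replicate 3), 2 of 7 members beside 11.1% of all genes. At 72 h Tnfrsf1a passed, by 0.52 ± 0.084 (adjusted p = 0.00175, but 0.0814 without replicate 1 and 0.0623 without replicate 2), beside 7.64% of all genes. At 144 h Tnfrsf10b was higher in WT-emiRFP by 0.25 ± 0.068 (adjusted p = 0.0162, but 0.119 without replicate 1 and 0.134 without replicate 3) and Cflar lower (−0.27 ± 0.084, adjusted p = 0.032, but 0.208 without replicate 1, 0.0726 without replicate 2 and 0.179 without replicate 3), beside 23.8%. Naive markers then summed to 68698 to 80741 in WT-emiRFP and 48699 to 54288 in WT-mCherry libraries beside WT cells. Mesoderm sums were 2122 to 3086 against 4661 to 6275, and haematoendothelial sums 7184 to 7215 against 5184 to 5646. Primed sums overlapped. The part of these markers in the clone differences was not tested.

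At 48, 96 and 120 h no member passed in edgeR between the WT clones, beside 8.89%, 2.15% and 1.24% of all genes. An unadjusted p under 0.05 was found for 2, 3 and 0 members, and DESeq2 called 0, 2 and 0. In the fit with the replicate block, Fadd (0.34 ± 0.087, adjusted p = 0.00377) and Tnfrsf1a (0.27 ± 0.07, adjusted p = 0.00375) passed at 48 h, Tnfrsf1a (0.29 ± 0.055, adjusted p = 0.00106), Tnfrsf10b (0.18 ± 0.038, adjusted p = 0.0028) and Casp8 (−0.55 ± 0.13, adjusted p = 0.00473) at 96 h, and Tnfrsf10b (0.15 ± 0.045, adjusted p = 0.0422) at 120 h. Fas did not pass in the edgeR fit per time point between the WT clones. In mES cells every WT-emiRFP library lay below every WT-mCherry library (13.4, 9.41 and 13.5 against 29.3, 19.9 and 20.7, −0.95 ± 0.38, adjusted p = 0.133, or 0.0449 with all groups in a single fit). The Cflar change between WT clones at 144 h stands beside its change by neighbour of −0.24, and the WT-mCherry libraries beside WT cells serve as the control in both.

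Over time Tnfrsf1a and Fasl were highest in WT cells at 96 h, and Fas and Tnfrsf10b at 72 h. Across all 23 groups, genotypes included, the highest group mean was 1.83 times the lowest for Ripk1, 2.17 for Cflar, 2.60 for Casp8, 2.80 for Fadd, 4.79 for Tnfrsf10b, 10.2 for Tnfrsf1a, 44.8 for Fasl and 48.7 for Fas. The lowest groups of Fas and Fasl had 4 and 2 reads in sum. Fasl passed the filter of the fit over all times only through the groups where it was high, so its calls are no support. They are among the following numbers in WT cells at 48, 72, 96 and 120 h and in p53KO-emiRFP cells at 96 and 120 h. WT cells were taken as the mean of both WT clones at 0 h and of all sorted WT populations later. WT-mCherry cells beside p53KO cells are among them, so the late steps include the difference by neighbour. In this mean 4 of 8 members changed from 0 to 48 h, 7 from 48 to 72 h, 4 from 72 to 96 h, 6 from 96 to 120 h and 5 from 120 to 144 h. The shares of all genes were 70.3%, 66.9%, 58.6%, 56.8% and 55.4%. At 72 h all 7 calls, Fasl included, were rises, beside 32.8% of all genes. At 120 h all 6, Fasl included, were falls, beside 28.0%. The rise of Fas at 72 h was 1.89 ± 0.17 (3.69-fold, edgeR adjusted p = 2.1e-14), that of Tnfrsf1a 0.92 ± 0.062 (adjusted p = 1.6e-19), that of Cflar 0.74 ± 0.058 (adjusted p = 4.4e-17), that of Casp8 0.55 ± 0.081 (adjusted p = 4.0e-08) and that of Fadd 0.46 ± 0.068 (adjusted p = 2.4e-08).

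In p53KO-emiRFP cells 4, 4, 4, 4 and 2 of 8 members changed over the same steps, beside 59.5%, 46.4%, 44.5%, 34.9% and 22.7% of all genes. Fas rose at 72 h there too, by 2.14 ± 0.64 (edgeR adjusted p = 0.00426, but 0.0867 without replicate 1 and 0.056 without replicate 2), from group means of 1.75 to 8.52. These means rest on 5 and 25 reads in sum, and Fas passed the filter through the WT groups. Tnfrsf10b, whose WT mean rose by 0.54 ± 0.056 from 0 to 48 h (adjusted p = 9.7e-13), had p53KO means of 855 and 942 and did not pass (adjusted p = 0.171). Tnfrsf1a fell from 96 to 120 h by 1.35 ± 0.062 in WT cells (adjusted p = 1.3e-26) and fell by 0.65 ± 0.10 in p53KO-emiRFP cells (adjusted p = 8.0e-07). The Tnfrsf1a difference between genotypes at 120 h exceeded that at 48 h by 0.93 ± 0.15 (adjusted p = 1.5e-06), where 36.6% of all genes passed that test. Counted in this way, genotype differences of 0, 0, 1 and 4 of the 7 members other than Fasl at 72, 96, 120 and 144 h departed from those at 48 h. With the replicate block Tnfrsf10b also passed at 72 h (−0.42 ± 0.11, adjusted p = 0.0265) and 96 h (−0.33 ± 0.12, adjusted p = 0.0435), and Cflar at 120 h (0.30 ± 0.12, adjusted p = 0.0404). The shares of all genes were 1.76%, 10.7%, 36.6% and 50.2%. For differences by neighbour the counts were 0, 0, 0 and, with Fas, 1 of 8, beside 0%, 0.218%, 1.06% and 9.10% of all genes. With the block Tnfrsf10b (0.35 ± 0.11, adjusted p = 0.0211) and Cflar (−0.35 ± 0.12, adjusted p = 0.0347) passed at 144 h too. Where edgeR called 0, an unadjusted p under 0.05 was found for 2 and 2 members by genotype and for 0, 0 and 2 by neighbour, and DESeq2 called 1 and 0 by genotype and 0 each time by neighbour.

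A further 39 genes of the pathway (other ligands and receptors, adaptors, complex II and necroptosis genes, inhibitors of apoptosis and genes downstream of caspase-8) were described as a list, of which 34 to 36 were tested at a time point. By genotype (p53KO-emiRFP against WT-emiRFP) the list had 0 higher and 3 lower genes in mES cells. The 48 h libraries gave 4 higher and 4 lower, the 72 h libraries 6 higher and 7 lower, and those of 96 h 4 higher and 3 lower. For 120 h the numbers were 13 higher, 6 lower, and for 144 h 6 higher, 12 lower. The shares of all genes are those given above for the members. The list's median log2 fold change lay between −0.068 and 0.0975 and that of all genes between −0.0115 and 0.046. Among its genes, Eda2r, the receptor of ectodysplasin A2 and a known p53 target, was the only gene lower at all 6 time points. Its mean at 0 h was 19.5 in p53KO-emiRFP and 3234 in WT-emiRFP cells, and its changes ranged from −7.38 at 0 h to −5.46 at 120 h (edgeR adjusted p = 6.2e-10 and 1.3e-12).

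By role, the 5 ligand genes of the list differed in level. Tnfsf10, the gene of the TRAIL ligand, had a group mean of at most 1.73 normalised counts, Tnf of 12.2, Lta of 12.9, Ltb of 142.9 and Tnfsf12, the gene of the ligand TWEAK, of 313. Tnfsf12 was lower in p53KO-emiRFP cells at 120 h (−0.88 ± 0.22, edgeR adjusted p = 0.00375) and 144 h (−1.44 ± 0.18, adjusted p = 6.8e-06). The adaptor-like gene Pea15a, whose product binds FADD and caspase-8, was higher at 120 h (1.29 ± 0.073, adjusted p = 7.1e-09) and 144 h (1.30 ± 0.077, adjusted p = 6.0e-09). Ripk3, the necroptosis kinase gene, was higher at 96 h (0.58 ± 0.079, adjusted p = 1.1e-04) and 120 h (0.78 ± 0.12, adjusted p = 6.9e-05). Birc3, an inhibitor of apoptosis, was lower at 120 h (−1.14 ± 0.14, adjusted p = 9.5e-06) and 144 h (−1.30 ± 0.13, adjusted p = 8.0e-07). These genes of the list, apart from Eda2r, were chosen for mention after their values were seen.

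Downstream of caspase-8, Casp6, the gene of another caspase, was lower in p53KO-emiRFP cells at 72 h (−0.52 ± 0.076, edgeR adjusted p = 1.3e-04) and higher at 120 h (0.32 ± 0.076, adjusted p = 0.00269) and 144 h (0.75 ± 0.065, adjusted p = 2.2e-07). Bid, which links caspase-8 to mitochondria, was lower at 144 h (−0.72 ± 0.072, adjusted p = 8.1e-07). Both genes were also picked after their values were seen.

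In WT-mCherry cells by neighbour, 0 genes of the list passed in edgeR at 48, 72 and 120 h, where 2, 4 and 8 had an unadjusted p under 0.05 and DESeq2 called 1, 0 and 2. With the replicate block 2, 0 and 10 passed at these times, 7 at 96 h and 14 at 144 h. At 120 h these libraries share only a number. At 96 h 1 of 36 passed, beside 3.93% of all genes: Ngfr, the p75 neurotrophin receptor gene, with means of 495 beside p53KO and 820.0 beside WT cells (−0.73 ± 0.091, edgeR adjusted p = 0.0028, but 0.334 without replicate 1). At 144 h 4 of 35 were higher and 5 lower, beside 25.5% of all genes called in either direction, with a list median of −0.031 beside −0.027 over all genes. The 2 with the largest change were again Ngfr (−0.72 ± 0.11, adjusted p = 5.3e-04) and Tnfaip3, the gene of the ubiquitin editor A20, which was higher (0.63 ± 0.15, adjusted p = 0.00756, but 0.112 without replicate 1 and 0.0514 without replicate 2). Named after their values were seen, Tnfrsf1b, the other TNF receptor gene, was higher (0.63 ± 0.12, adjusted p = 0.00294, but 0.0527 without replicate 1), and Pea15a was lower (−0.60 ± 0.077, adjusted p = 2.2e-04).

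The genes whose course over the 23 group means was most like each member's were found by Pearson's r on the log2 scale, as a description, since the groups share clones, time points and experiments. For Fas, compared with 14078 genes, they were Pm20d1 (r = 0.94), Cpped1 (r = 0.93) and Inka2 (r = 0.92). For Tnfrsf10b they were Lif (r = 0.98), Dscaml1 (r = 0.98) and Cpt1c (r = 0.97), and for Tnfrsf1a Slit3 (r = 0.98), Lrp8 (r = 0.97) and Ogfr (r = 0.97). For Fadd they were Sowahc (r = 0.97), Invs (r = 0.96) and Tpmt (r = 0.96), and for Cflar Chid1 (r = 0.96), Ergic1 (r = 0.95) and Rsph3a (r = 0.95). Fasl, compared with 19960 genes of lower minimum level, was most like B3gnt7 (r = 0.92), 2310034G01Rik (r = 0.90) and Ptgs1 (r = 0.89). Casp8, with Fam120c (r = 0.81), Elf4 (r = 0.79) and Ehhadh (r = 0.77), and Ripk1, with Wrap73 (r = 0.84), Ttf1 (r = 0.81) and Rps27l (r = 0.81), had the weakest likeness.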

How the data were processed

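Polyadenylated RNA of 69 libraries (23 groups of 3 replicates) was sequenced with a stranded protocol. Per the labels and the study's methods, the authors trimmed reads with Trim Galore 0.6.7, aligned them to GRCm38.p6 with STAR 2.7.11b and deposited raw counts of uniquely mapped reads per gene symbol. The strand setting of the counting is not given in the sources used here. Total counts were 26722541 to 72981570 per library, so genes of a few reads, such as Fasl, have wide counting errors. Read counts were divided by median-of-ratios size factors over 17794 genes. Differences were tested in all genes with edgeR 4.0.16 (R 4.3.3), by quasi-likelihood tests in 1 fit per time point after filterByExpr. Changes over time, and changes of an effect between times, came from 1 fit of all 69 libraries. The Benjamini-Hochberg adjusted p had to be under 0.05 for a call. DESeq2 1.42.0, TMM normalisation, no filter, other sets of libraries in the fit, a replicate block and leaving out each replicate were alternatives, and subtraction of emiRFP RNA was added after the data were seen. The tests were tested on simulated data.

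Replicate numbers came from the labels. In 14 of 17 comparisons within a time point every correlation of deviations between same-numbered libraries was over 0.1 (0.0406 to 0.688 in all 17), and 99 of 102 libraries correlated best with their own number, so the numbers were taken to pair libraries in those 14. The exceptions were WT-emiRFP against WT-mCherry cells at 0 and 72 h and WT-mCherry cells by neighbour at 120 h. The main fits left this pairing out, and the fit with the replicate block, which made more calls, is an alternative. Exon lengths and positions were from Gencode vM21, which held 96.4% of the symbols.

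The members and the lists of pathway genes and markers were chosen with earlier results of these data known. Genes named were the 8 members, the 3 genes most like each, genes of the pathway list past the threshold one way at all 6 time points or among the 2 with the largest change by neighbour, Trp53 and the markers, and the Results say which other genes of the list were chosen after their values were seen. A rule for genes marking the mCherry clone found 0 genes. Values after ± are standard errors for log2 fold changes and SD (n = 3) for means. Per-library values are in the order of the replicates.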

Additional observations from a re-analysis of the deposited data

Results flagged for a closer look

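The difference between genotypes or neighbours at a time point was compared with the same difference at 48 h, in a single fit, and 6 such changes of members other than Fasl passed the test. All are log2 values with standard errors. The p53KO effect on Tnfrsf1a was larger than at 48 h by 0.93 ± 0.15 at 120 h (edgeR adjusted p = 1.5e-06) and by 1.26 ± 0.16 at 144 h (adjusted p = 1.0e-09). That on Fadd was larger by 0.64 ± 0.16 at 144 h (adjusted p = 8.3e-04), and that on Cflar by 0.63 ± 0.14 (adjusted p = 1.8e-04). These 4 changes passed whichever replicate was left out. Such a change was found for 36.6% of all genes at 120 h and 50.2% at 144 h, 10.7% at 96 h and 1.76% at 72 h, against 1, 4, 0 and 0 of the 7 members other than Fasl.

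Tnfrsf10b fell further below WT-emiRFP cells at 144 h than at 48 h, by −0.39 ± 0.12 (edgeR adjusted p = 0.00691, but 0.0826 without replicate 3). For Fasl the fitted change was −3.12 at 120 h and −4.55 at 144 h. These are given as values only, since Fasl passed the filter of this fit only through the groups where it was high, and had few reads. The sums of 3 libraries were 7 in p53KO-emiRFP against 2 in WT-emiRFP cells at 48 h, 5 against 15 at 120 h and 2 against 18 at 144 h.

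The neighbour effect on Fas was larger at 144 h than at 48 h by 1.45 ± 0.45 (edgeR adjusted p = 0.0305). Without replicate 1 it was 0.82 (adjusted p = 0.494), and without replicate 2 it was 1.89 (adjusted p = 0.0676). With only the libraries of the compared time points in the fit it was 1.45 (adjusted p = 0.0703). For Tnfrsf10b the change at 144 h was 0.35 ± 0.12 (adjusted p = 0.0502, but 0.0211 with the replicate block, 0.031 in DESeq2 and 0.0334 with only the compared time points). In edgeR 9.10% of all genes passed at 144 h. In no group of 3 libraries was a single library tested for standing apart.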

How the results depend on the processing

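Calls between p53KO-emiRFP and WT-emiRFP cells (23) numbered 19 to 30 under the alternatives, those over time in WT cells (26) 23 to 28 and in p53KO-emiRFP cells (18) 13 to 20, those of a changed p53KO effect (7, of which 2 are of Fasl) 5 to 10, and those of the pathway list by genotype (68) 48 to 99. The calls over time include those of Fasl. Calls by neighbour (6) fell to between 1 and 3 when a replicate was left out and rose to 10 with the replicate block. Calls between the WT clones (5) fell to between 1 and 2 without a replicate, and were 13 with the block and 8 with all 23 groups in a single fit. The changed neighbour effect (1) was called 0 or 1 times without a replicate, 3 times with the block and 2 times in DESeq2. Calls of the pathway list by neighbour (10) numbered 5 to 7 without a replicate, 33 with the block and 17 in DESeq2. With the replicate block, calls were also made where libraries share only a number: Tnfrsf10b by neighbour at 120 h (2.8e-04), and between the WT clones Tnfrsf10b at 0 h (0.038) and Fadd at 72 h (0.0489). Among the values printed here the block changed no other call than these and those given beside their results. Counting each single value once per alternative, 1088 cases kept the direction and the side of the threshold, 85 no longer passed, 49 newly passed and 1 reversed, Fas by neighbour at 48 h, whose values without 1 replicate were −0.37 to 0.33, the 0.33 without replicate 1. The cause was not tested. Depth limits Fas in p53KO-emiRFP cells and Fasl outside 96 h, where libraries had few reads. The p53KO cells are 1 clone, sorted cells were pooled from gastruloids, and mRNA level is not caspase activity.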
